A study of Mus musculus with 24 samples.

Results

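Lipid-associated macrophages are a state of tissue macrophages, described in adipose tissue, atherosclerotic plaques and tumors, in which cells take up and store lipid. The surface receptor TREM2 binds lipids, lipoproteins and apolipoprotein E and signals through the adaptor TYROBP, while secreted proteins such as osteopontin and galectin-3 act on neighbouring cells. Of the 55487 gene IDs in the deposited count table, 10 were taken here as genes of this state by their symbols (Spp1, Gpnmb, Apoe, Fabp4, Fabp5, Lpl, Trem2, Lgals3, Plin2 and Cd9), and all 10 were found.

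The macrophages came from 4 orthotopic tumors, grown in C57BL/6J mice from implanted cells of the murine colon carcinoma line MC38. The carcinoma cells were either wild type for the Wnt pathway suppressor Apc (APC-WT, 2 tumors) or lacked it (APC-KO, 2 tumors), and the macrophages themselves are host cells whose Apc was not targeted. They were sorted as CD45+ CD11b+ F4/80+ cells, and RNA of each tumor was made into 6 libraries by an ultra low input protocol, 24 libraries in all. The labels give no age, sex or day, and how the knockout line was made, or whether it is 1 clone, is not given in the sources used here. Since the 6 libraries repeat the sample of a single tumor, their spread does not measure how tumors or animals vary, and the genotypes were compared as 2 tumors against 2. Values from sorted bulk RNA do not tell fewer cells of a kind from less RNA per cell.

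The APC-WT libraries had 74972634 to 93568353 counts each in tumor 1 and 28018638 to 46837543 in tumor 2, and the APC-KO libraries 8895722 to 19328572 and 13464061 to 17196820. Satellite-like repeat loci took 1.32%, 7.08%, 37.9% and 38.5% of the counts in that order, and a background spread over all genes by their exonic length was estimated, from olfactory and vomeronasal receptor genes, at 0.751%, 5.05%, 17.6% and 17.9%. Levels are therefore given as scaled CPM, CPM computed relative to the counts of 3938 expressed genes, and each low gene is set beside its expected background. A gene counted as expressed when its mean CPM over the 4 tumors was at least 10 and at least 10 times that background. The 10 genes together held 2.99%, 1.74%, 1.17% and 1.68% of all counts, most of it Apoe (2.79%, 1.52%, 0.968% and 1.54%). All 12 macrophage markers, among them Csf1r, Adgre1 (F4/80) and C1qa, were at 3 times their expected background or more in each tumor, and summed to 34046, 28571, 28577 and 29512 scaled CPM. The like sums hide markers that moved in different directions. Csf1r stood at 3934, 2938, 644 and 745 and Adgre1 at 1278, 1120, 276 and 282. The sort markers Itgam (CD11b) and Ptprc (CD45) were also lower in both APC-KO tumors. C1qa stood at 3714, 2516, 4393 and 5215, and C1qb was likewise higher in both APC-KO tumors. These levels carry the trend with transcript length described below. No marker gene of any of the 8 cell type lists was at 0 in any tumor.

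The promoters of 7 of the 10 genes were matched in the RefSeq table (build GRCm38.p6), which holds no entry used here for Fabp4, Fabp5 or Lpl. Shown are the 250 bases before the start of Apoe and Trem2, which differed in the same direction between the 2 tumors of each genotype, and of Lgals3 and Plin2, which differed in the opposite one, each read 5′ to 3′ on the gene's own strand. They lie at chr7:19699189-19699438 (minus strand), chr17:48346151-48346400 (plus), chr14:47373610-47373859 (plus) and chr4:86670060-86670309 (minus). For Lgals3 only 1 start is listed, at 47373860, and it lies inside the annotated gene, which begins at 47367751. Its bases are thus those before an internal start. Capitals mark matches, on either strand, to 4 short motifs: GAGGAA (the core bound by PU.1, the lineage factor of macrophages), TGANTCA (AP-1), AGGTCA (the half-site of nuclear receptors such as PPAR and LXR) and CACGTG (the E-box bound by MITF and TFE factors).
Apoe: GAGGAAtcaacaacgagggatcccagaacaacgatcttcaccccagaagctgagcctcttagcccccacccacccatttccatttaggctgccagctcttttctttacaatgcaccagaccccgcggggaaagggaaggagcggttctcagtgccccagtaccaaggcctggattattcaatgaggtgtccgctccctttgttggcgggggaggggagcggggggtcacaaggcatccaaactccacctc
Trem2: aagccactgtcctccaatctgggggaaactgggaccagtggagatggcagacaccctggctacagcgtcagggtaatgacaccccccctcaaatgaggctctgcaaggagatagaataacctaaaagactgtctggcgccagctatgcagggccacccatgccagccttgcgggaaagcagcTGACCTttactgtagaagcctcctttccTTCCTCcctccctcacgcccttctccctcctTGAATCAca
Lgals3: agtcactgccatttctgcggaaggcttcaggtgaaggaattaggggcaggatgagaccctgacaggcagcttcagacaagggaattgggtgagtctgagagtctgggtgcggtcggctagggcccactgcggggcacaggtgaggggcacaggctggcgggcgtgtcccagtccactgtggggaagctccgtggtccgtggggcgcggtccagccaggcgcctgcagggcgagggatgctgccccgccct
Plin2: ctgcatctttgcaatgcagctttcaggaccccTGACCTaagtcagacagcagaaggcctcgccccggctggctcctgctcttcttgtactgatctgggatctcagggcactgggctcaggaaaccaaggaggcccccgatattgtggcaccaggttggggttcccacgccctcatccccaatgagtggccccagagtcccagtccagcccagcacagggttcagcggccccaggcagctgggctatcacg

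Apoe held a GAGGAA match whose first base lies at -250 from the start, and Trem2 held 3 matches: TGACCT at -68 and TTCCTC at -40, both the reverse-strand forms, and TGAATCA at -9. Plin2 held TGACCT at -218, and Lgals3 held none of the 4. Of the 3 further promoters, that of Spp1 held GAGGAA at -113 and those of Gpnmb and Cd9 held no match. No match overlapped another, and CACGTG was in none of the 7. Over 32851 promoters of the same length in the table, GAGGAA was found in 23.3%, AGGTCA in 14.0%, TGANTCA in 6.75% and CACGTG in 6.02%, so each is a common word and a match describes only the letters.

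Apoe (ENSMUSG00000002985, chr7:19696109-19699188, GRCm38), which codes for the lipid carrier of lipoproteins, was by far the most abundant of the 10. It read 35338 to 39408 scaled CPM in the 6 libraries of APC-WT tumor 1 (median 37177) and 21192 to 22207 in APC-WT tumor 2 (median 21618). In APC-KO it read 27156 to 28353 in tumor 1 (median 28074) and 43525 to 45018 in tumor 2 (median 44615). The 4 tumors did not overlap, and the highest and the second highest belonged to different genotypes. Trem2 (ENSMUSG00000023992, chr17:48346401-48354147), the lipid-sensing receptor, read 250.5 to 271 in APC-WT tumor 1 (median 259) and 177 to 198 in APC-WT tumor 2 (median 191). It read 341 to 405 in APC-KO tumor 1 (median 385) and 407 to 454 in APC-KO tumor 2 (median 437), so both APC-KO tumors lay above both APC-WT tumors.

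Among the secreted ligands, Spp1 (ENSMUSG00000029304, chr5:104435118-104441050) codes for osteopontin, a ligand of integrins and CD44. Its scaled CPM were 756 to 811 (median 785) in APC-WT tumor 1, 789 to 841 (819) in APC-WT tumor 2, 1789 to 1931 (1821) in APC-KO tumor 1 and 1094 to 1149 (1129.9) in APC-KO tumor 2. The APC-WT tumors overlapped each other, and both APC-KO tumors lay above them. Lgals3 (ENSMUSG00000050335, chr14:47367751-47386160) codes for galectin-3, a sugar-binding protein that is also a TREM2 ligand. Its scaled CPM were 744 to 799 (median 779.7), 1035 to 1097 (1068), 1878 to 2042 (1937) and 1142 to 1306 (1237) in the same order, with no overlap between any of the tumors.

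Plin2 (ENSMUSG00000028494, chr4:86648386-86670060) codes for perilipin 2, the coat protein of lipid droplets. It stood at 599 to 631 scaled CPM (median 613) in APC-WT tumor 1, 765 to 837 (786) in APC-WT tumor 2, 889 to 1073 (1015) in APC-KO tumor 1 and 436 to 501 (463) in APC-KO tumor 2. The APC-KO tumors were the highest and the lowest of the 4, with both APC-WT tumors between them. The tetraspanin Cd9 (ENSMUSG00000030342, chr6:125460266-125494791), a membrane organiser used as a surface marker of these cells, stood at 147 to 159 (149.6), 202 to 220.1 (212), 237 to 303 (254) and 135 to 198 (174) in the same order. Its libraries in APC-KO tumor 2 overlapped those of APC-WT tumor 1.

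Fabp5 (ENSMUSG00000027533, chr3:10012548-10016607), a cytosolic carrier of fatty acids, read 38.1 to 48.4 scaled CPM (median 41.4) in APC-WT tumor 1 and 25.9 to 32.7 (27.6) in APC-WT tumor 2, over an expected background of 0.275 and 1.96. It read 98.4 to 124 (113) in APC-KO tumor 1 and 64.8 to 89.9 (73) in APC-KO tumor 2, over 13.9 and 14.1. Both APC-KO tumors lay above both APC-WT tumors, and within each genotype tumor 2 was the lower. Fabp5 shares 33.1% of its 31-base stretches with other annotated genes, of which 2 hold a share of at least 10%, but those genes had 977 counts in all libraries together against 25300 for Fabp5. In Cd9 and Spp1 the genes that share sequence to that extent had 2140 counts against 99798, and 2435 against 496050.

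**Figure D1:**
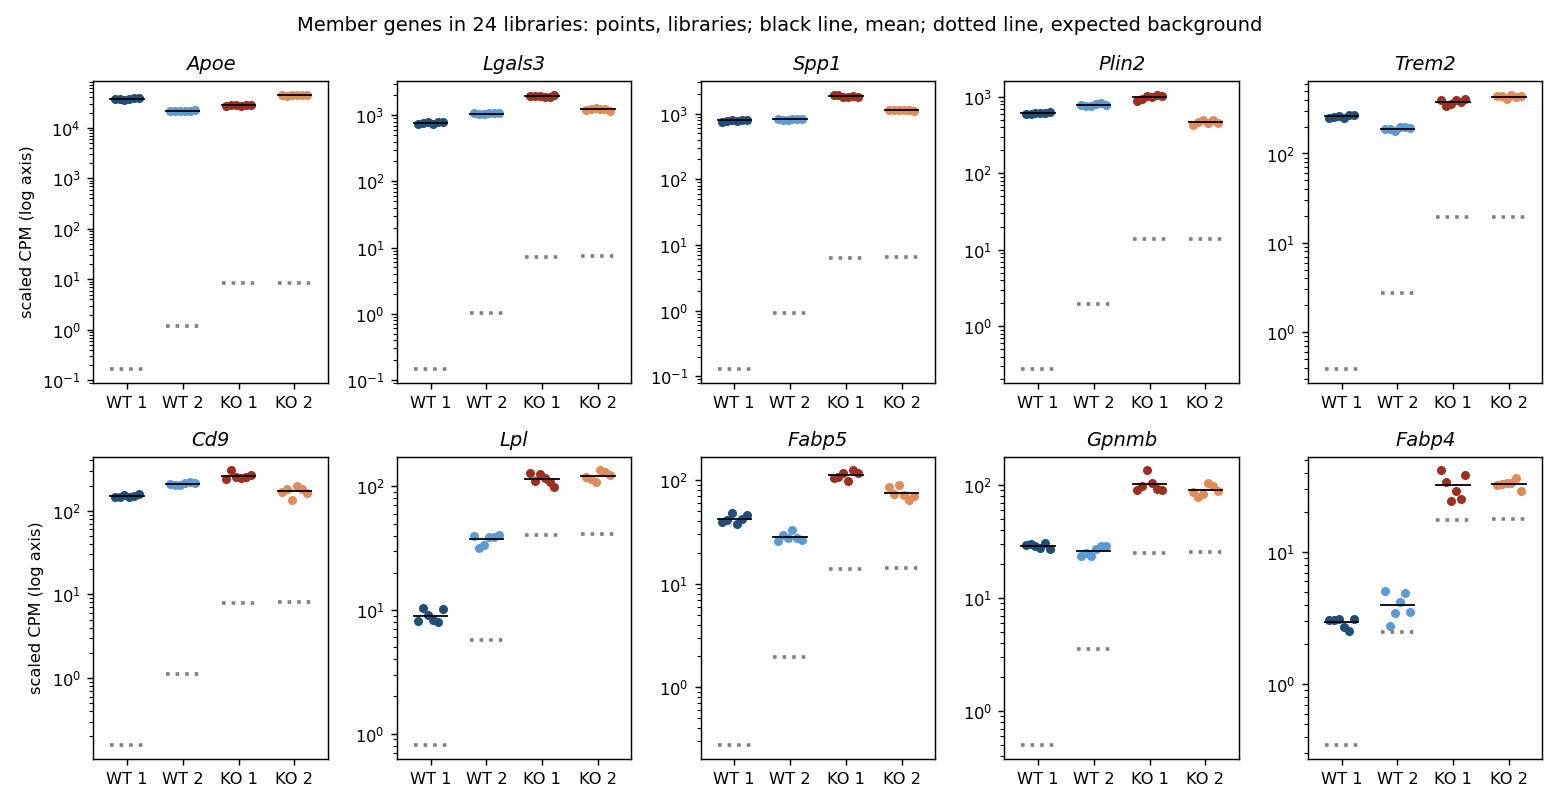
Scaled CPM of the 10 genes in the 24 libraries, on a log axis, with a panel for each gene and a column for each tumor. Points are libraries, the black line is their mean and the dotted line the expected background. In APC-KO tumors 1 and 2 the points of Gpnmb, Lpl and Fabp4 lie near the dotted line, at 3.92 and 3.49, 2.77 and 2.95, and 1.81 and 1.84 times its level.

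The other 3 genes were not expressed by the rule above and were not tested. Gpnmb (ENSMUSG00000029816, chr6:49036546-49070929), a lysosomal and surface glycoprotein, read 27.4 to 30.8 scaled CPM (median 29.1) in APC-WT tumor 1, 23.6 to 28.8 (26.3) in APC-WT tumor 2, 90.0 to 135 (94.8) in APC-KO tumor 1 and 78.5 to 104 (87.9) in APC-KO tumor 2. Its expected background was 0.502, 3.59, 25.3 and 25.7 in the same order, so the gene stood at 57.9, 7.23, 3.92 and 3.49 times background. Gpnmb was thus higher in APC-KO on scaled CPM and closer to background there.

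Lpl (ENSMUSG00000015568, chr8:68880491-68907448), the secreted lipase that frees fatty acids from lipoproteins, read 8 to 10.5 scaled CPM (median 8.65), 31.7 to 40.7 (39.0), 98.5 to 129 (113) and 109 to 134 (122) in the same order. That was 11.2, 6.35, 2.77 and 2.95 times its expected background. Fabp4 (ENSMUSG00000062515, chr3:10204088-10208576), the fatty acid carrier shared by adipocytes and macrophages, read 2.55 to 3.11 (median 3.06), 2.76 to 5.05 (3.86), 24.4 to 41.5 (31.6) and 29.1 to 36.7 (32.9), or 8.52, 1.56, 1.81 and 1.84 times background. Among 1859 receptor genes with at least 500 bases of exon, the 95th percentile of that ratio was 2.50, 1.82, 2.27 and 2.27. Fabp4 stood at percentile 99.8 of the receptor genes in APC-WT tumor 1 and at 89.0, 89.6 and 90.2 in the other 3 tumors. Lpl and Gpnmb lay above the 95th percentile in all 4 tumors. In a fit of 53705 genes scaled to the expressed genes, Gpnmb stood 1.80 ± 0.237, Lpl 2.38 ± 0.455 and Fabp4 3.26 ± 0.596 higher in APC-KO on the log2 scale, where the median over all genes was 3.57, 59.2% rose and 2.75% fell. The 3 genes were thus below the median shift of that table, which holds mostly genes near background.

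Adipocyte markers, which bear on Lpl and Fabp4, summed to 4.76, 20.6, 193 and 187 scaled CPM over an expected background of 2.25, 16.1, 114 and 116, and at most 1 of the 10 was at 3 times its background in any tumor. Adipoq, the defining one, was at 1.26, 1.45, 1.63 and 1.72 times background.

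Compared per kb of the principal isoform, the order of the genes was nearly fixed. Apoe came first in each tumor, at 26551, 15346, 19860.4 and 31589 scaled CPM per kb, and Lgals3 second, at 546, 747, 1366 and 867. Spp1 followed at 521, 541, 1221 and 747, below Lgals3 in each of the 24 libraries. Plin2 came next and then Trem2 in both APC-WT tumors and in APC-KO tumor 1, and they changed places in APC-KO tumor 2, where Trem2 stood at 399 and Plin2 at 248. Cd9 followed these and Fabp5 came after Cd9 throughout, and Fabp4, Lpl and Gpnmb took the last 3 places.

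The tumors of a genotype differed in all 7 expressed genes, and 6 of the 7 (all but Fabp5) differed in opposite directions in the 2 genotypes. In APC-WT, tumor 2 was lower than tumor 1 in Apoe, Trem2 and Fabp5 and higher in Lgals3, Cd9, Plin2 and Spp1, though these 4 turned lower (-0.81 to -1.23) when TMM was taken over all genes, which put the median expressed gene at -1.31. In APC-KO, tumor 2 was higher in Apoe and Trem2 and lower in the other 5, and TMM over all genes left these directions as they were, although the difference of Trem2 no longer passed (adjusted p = 0.137). The p-values of these comparisons (edgeR's quasi-likelihood test on libraries, Benjamini-Hochberg adjustment over all expressed genes) measure the spread between libraries of a tumor and not between animals. At that spread 46.9% of all expressed genes passed in APC-WT (19.5% higher, 27.5% lower) and 33.3% in APC-KO (15.2% higher, 18.1% lower), beside 7 of 7 here in each.

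Apoe was 1.73-fold lower in APC-WT tumor 2 than in tumor 1 (log2 -0.79 ± 0.0196 SE, adjusted p = 3.17e-20) and 1.59-fold higher in APC-KO tumor 2 than in tumor 1 (0.67 ± 0.0196, adjusted p = 7.41e-19). Trem2 moved the same way as Apoe, by -0.45 ± 0.0410 (adjusted p = 1.59e-09) and 0.20 ± 0.0414 (adjusted p = 0.000567). Receptor and ligand were thus both lower in tumor 2 of one genotype and both higher in tumor 2 of the other, with Trem2 differing by less. Between genotypes, Apoe was lower and Trem2 higher in APC-KO tumor 1 than in APC-WT tumor 1 (log2 -0.42 and 0.55, scaled CPM). Both genes were higher in the other pairings. APC-KO tumor 1 gave 0.37 and 1.01 against APC-WT tumor 2. APC-KO tumor 2 gave 0.25 and 0.74 against APC-WT tumor 1, and 1.04 and 1.20 against APC-WT tumor 2. With the offset on the longest transcript described below, Trem2 was higher in each pairing and Apoe only in the last (0.48). With the offset on the principal isoform, Apoe stood at -0.23 and Trem2 at -0.05 in the test of genotypes. Of the 3938 expressed genes, 8.99% passed in both comparisons within a genotype in the directions of Apoe and Trem2.

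Plin2 showed the widest contrast the other way, with 0.37 ± 0.0414 in APC-WT (adjusted p = 5.11e-08) and -1.09 ± 0.0421 in APC-KO (adjusted p = 2.21e-16), the latter a 2.12-fold difference. Lgals3 moved by 0.46 ± 0.0291 (adjusted p = 2.10e-12) and -0.66 ± 0.0292 (adjusted p = 3.22e-15), and Cd9 by 0.48 ± 0.0656 (adjusted p = 1.33e-06) and -0.60 ± 0.0673 (adjusted p = 9.79e-08). Lgals3 and Cd9 were alike in size in both genotypes. Spp1 was 1.04-fold higher in APC-WT tumor 2 (0.06 ± 0.0237, adjusted p = 0.0393) and fell by 0.71 ± 0.0239 on the log2 scale in APC-KO (adjusted p = 1.32e-17). The APC-WT difference of Spp1 no longer passed without replicate 1, 2 or 4 of tumor 1 or replicate 1, 4, 5 or 6 of tumor 2 (adjusted p = 0.0570 to 0.0979) and with the replicate number as a block (adjusted p = 0.0665), and it was -0.03 with the length offset described below. Of all expressed genes, 9.95% passed in both comparisons in the directions of Lgals3, Plin2, Cd9 and Spp1.

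Fabp5 was the one gene of the 7 that was lower in tumor 2 of both genotypes, by -0.59 ± 0.0815 in APC-WT (adjusted p = 1.59e-06) and -0.56 ± 0.0841 in APC-KO (adjusted p = 7.88e-06). Among all expressed genes 3.30% passed in the same direction in both comparisons and 18.9% in opposite directions. The median of the 7 was 0.06 in APC-WT and -0.60 in APC-KO, beside -0.02 and 0.01 over all expressed genes. The grouping of the genes into those that went with Apoe and those that went with Lgals3 was made after these values were seen.

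**Figure D2:**
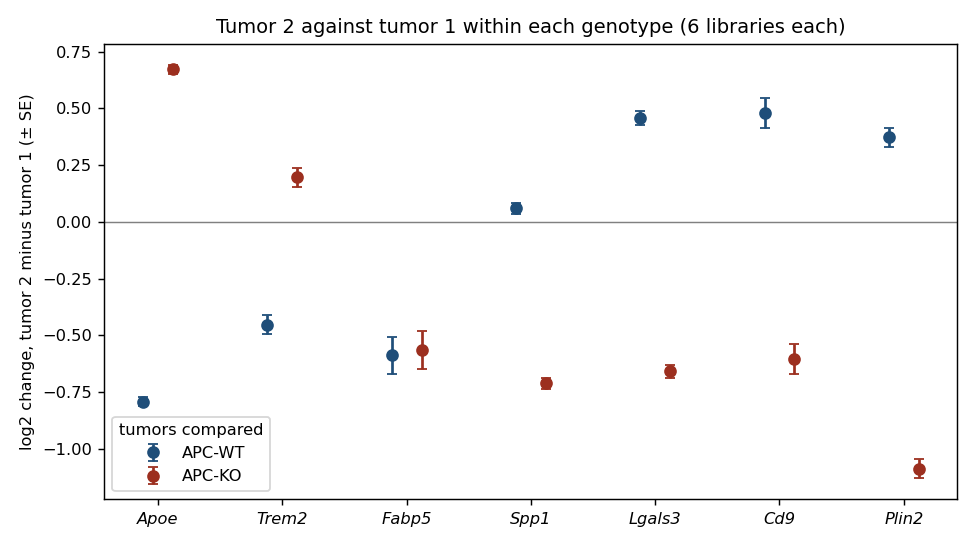
Log2 change of the 7 expressed genes from tumor 1 to tumor 2, in APC-WT (blue) and APC-KO (red), with bars of 1 SE over libraries (6 per tumor). Apoe and Trem2 are below 0 in APC-WT and above it in APC-KO, Spp1, Lgals3, Cd9 and Plin2 the reverse, and Fabp5 is below 0 in both.

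Ratios of 2 genes within a library do not depend on how libraries were scaled. The ratio of Apoe to Lgals3 per kb was 48.8 ± 1.88 in APC-WT tumor 1 and 20.5 ± 0.234 in tumor 2, and 14.5 ± 0.454 in APC-KO tumor 1 and 36.5 ± 1.77 in tumor 2 (mean ± SD, n = 6 libraries each). No library of one tumor reached into the range of another, and the tumor of each genotype with the higher ratio stood above both tumors with the lower ratio. The ratio of Cd9 to Lgals3, 2 genes of like length, was nearly constant within a genotype. It was 0.226 ± 0.00364 and 0.229 ± 0.00509 in APC-WT, and 0.154 ± 0.0119 and 0.161 ± 0.0217 in APC-KO.

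Spp1 stood at 0.954 ± 0.0154 and 0.725 ± 0.0140 times Lgals3 in APC-WT tumors 1 and 2, and at 0.894 ± 0.0380 and 0.863 ± 0.0328 in APC-KO tumors 1 and 2. The APC-KO tumors overlapped in this ratio and the APC-WT tumors did not. Plin2 stood at 0.596 ± 0.0140 and 0.561 ± 0.0183 times Lgals3 in APC-WT and at 0.386 ± 0.0303 and 0.287 ± 0.0140 in APC-KO, so both APC-KO tumors were below both APC-WT tumors in each library. Plin2 (1888 bases) is longer than Lgals3 (1419), so this ratio also carries the trend with transcript length described below. Between genotypes Plin2 and Lgals3 stood at log2 0.09 and 0.81 with no length offset, and closer together, at -0.14 and 0.19, with it. Trem2 stood at 0.00899 ± 0.000295, 0.0114 ± 0.000333, 0.0176 ± 0.00138 and 0.0126 ± 0.000501 times Apoe in the 4 tumors, highest in APC-KO tumor 1.

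**Figure D3:**
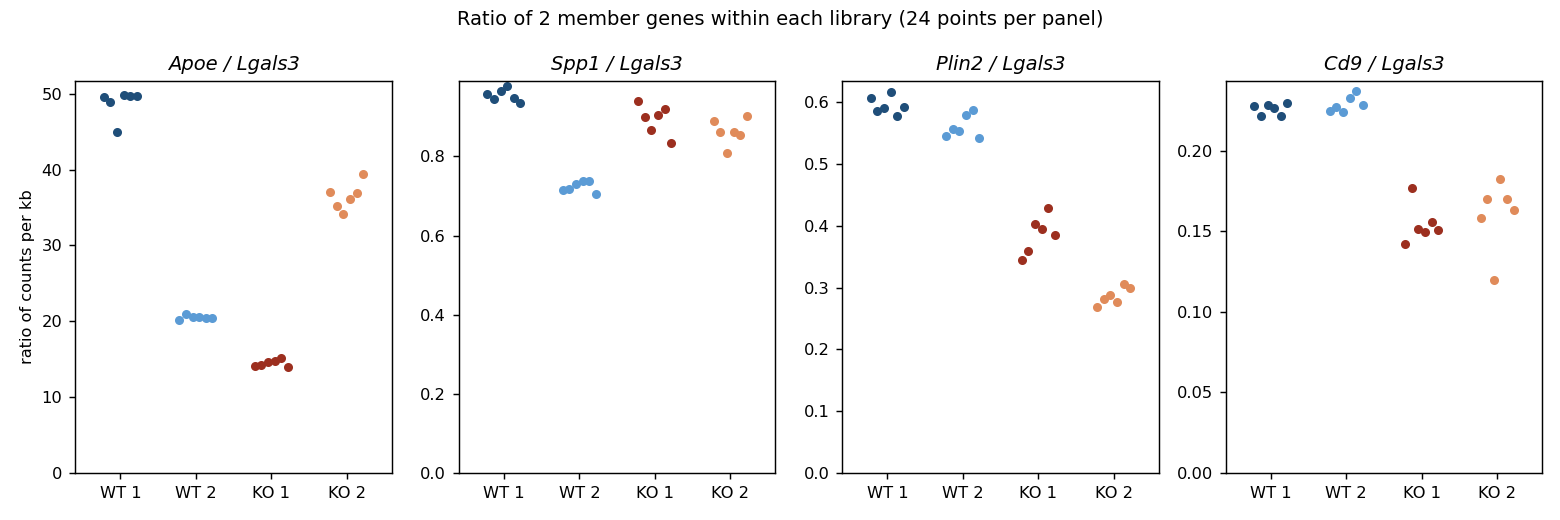
Ratio of counts per kb of principal isoform of 2 genes within each of the 24 libraries, one panel per pair and one column per tumor. The Apoe to Lgals3 ratio separates the 2 tumors of each genotype, from 48.8 to 20.5 and from 14.5 to 36.5 on average, while the Cd9 to Lgals3 ratio separates the genotypes.

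Markers of other cells moved with both groups of genes. The 10 neutrophil markers summed to 325 and 584 scaled CPM in tumors 1 and 2 of APC-WT and to 535 and 290.1 in those of APC-KO, over an expected background of 1.33, 9.50, 67.2 and 68.2. Within each genotype this sum moved with Lgals3, Plin2, Cd9 and Spp1, and 10, 6, 6 and 5 of the 10 markers were at 3 times background or more. The neutrophil calprotectin gene S100a9, at 18.4, 79.3, 187 and 71.2 scaled CPM, was likewise higher in tumor 2 of APC-WT and lower in tumor 2 of APC-KO. The 10 fibroblast markers summed to 1688 and 965 in APC-WT and 496 and 693 in APC-KO, over 5.87, 42.0, 297 and 301, with 9, 6, 0 and 3 at 3 times background. Within each genotype that sum moved with Apoe and Trem2, but it was lower in both APC-KO tumors than in both APC-WT tumors, which neither gene was. Epithelial markers summed to 219, 717, 378 and 453 over 1.85, 13.2, 93.4 and 94.9, and endothelial markers to 141, 216, 315 and 318 over 3.46, 24.7, 175 and 177. Markers of T and NK cells summed to 29.6, 53.9, 168 and 324 over 2.01, 14.4, 102 and 103, and those of dendritic cells to 72.0, 109, 349.6 and 356 over 3.11, 22.2, 157 and 159. The part of these cells in the values of the 10 genes was not tested.

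**Figure D4:**
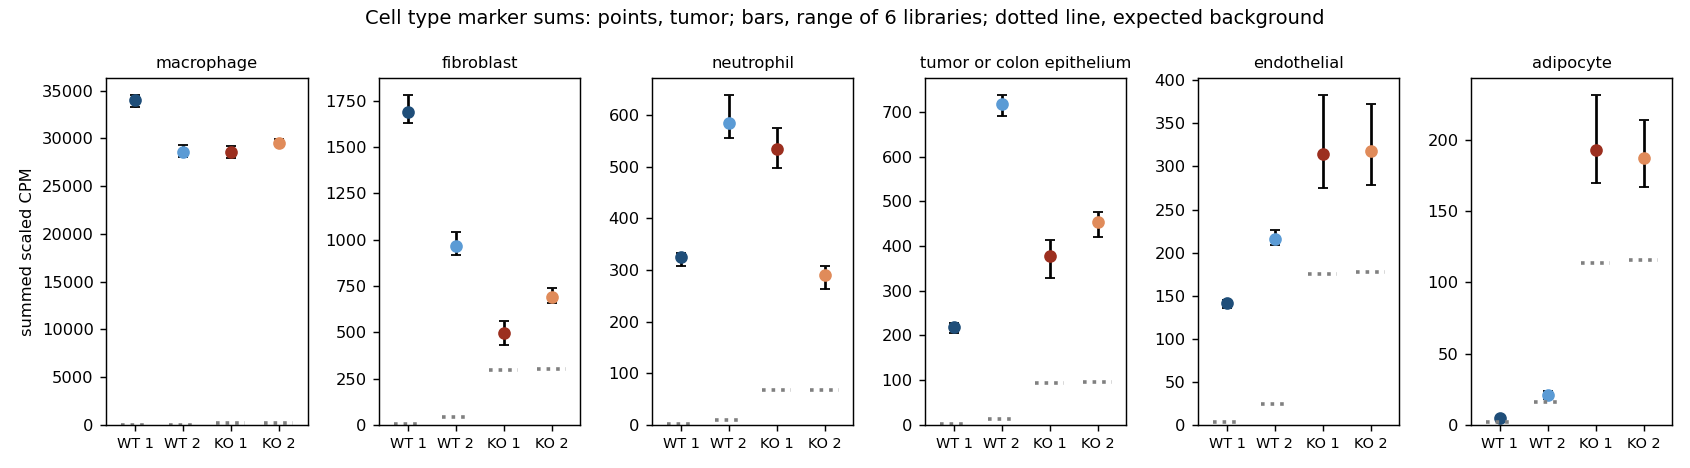
Summed scaled CPM of cell type markers in the 4 tumors: points are tumors, bars span the 6 libraries and the dotted line is the expected background of the same genes. The neutrophil sum is high in APC-WT tumor 2 and APC-KO tumor 1, and the fibroblast sum falls within APC-WT from 1688 to 965 and is higher in APC-KO tumor 2 (693) than in tumor 1 (496).

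Between genotypes, 4 of the 7 expressed genes (Spp1, Fabp5, Trem2 and Lgals3) had both APC-KO tumors above both APC-WT tumors on scaled CPM, and none had both below. Of all expressed genes 41.1% lay above in this way and 42.0% below. Gpnmb, Lpl and Fabp4 also had both APC-KO tumors above, over the higher background given above. The test of 2 against 2 tumors (edgeR's quasi-likelihood test on counts summed per tumor) took account of a trend with transcript length. Without such an offset the median log2 change ran from 1.46 in 380 genes with principal isoforms of up to 1000 bases to -0.60 in 620 genes of more than 4000. All 7 expressed genes here have principal isoforms under 2000 bases.

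With the offset on the longest annotated transcript, Fabp5 rose by 1.80 ± 0.299 (log2 ± SE, adjusted p = 0.0102) and Trem2 by 1.41 ± 0.190 (adjusted p = 0.00630) in APC-KO, and no other gene of the 7 passed. Of all expressed genes 24.9% rose and 24.4% fell. The 2 calls rest on which length is used. The longest annotated transcript of Trem2 is a retained-intron form of 4784 bases against 1088 for the principal isoform, and that of Fabp5 one of 3238 against 987, whereas in the other 5 the 2 lengths are the same. With the offset on the principal isoform Fabp5 stood at 0.37 ± 0.285 (adjusted p = 0.331) and Trem2 at -0.05 ± 0.216 (adjusted p = 0.859). Of all genes fitted with that length 23.4% rose and 22% fell, beside 0 of the 7. Of the 164 expressed genes whose longest transcript is more than 2 times as long as the principal isoform, 108 rose with the first length and 37 with the second. With a lower limit for expressed genes (mean CPM of at least 1 and 3 times the background), 25.6% of 12234 genes rose and 34.2% fell. There Trem2 had an adjusted p of 0.178 and Fabp5 of 0.111, and the genes that rose were Gpnmb and Lpl, 2 of the 9 fitted, while Lgals3, Plin2 and Cd9 fell. A scaling by TMM over all genes put the median expressed gene at -4.01, with Fabp5 at -2.74 and Trem2 at -3.27, both above that median.

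The other 5 did not pass with either length. With the longest transcript, Spp1 stood at 0.37 ± 0.257 (adjusted p = 0.284), Lgals3 at 0.19 ± 0.270 (adjusted p = 0.584), Plin2 at -0.14 ± 0.393 (adjusted p = 0.789), Apoe at -0.32 ± 0.407 (adjusted p = 0.533) and Cd9 at -0.57 ± 0.246 (adjusted p = 0.116). With the principal isoform they stood at 0.48, 0.28, 0.01, -0.23 and -0.48. The SE of Apoe and Plin2 were the widest of the 7. Taking each APC-KO tumor against each APC-WT tumor in turn, with the offset on the longest transcript, the change of Apoe ran from -1.12 to 0.48 and that of Plin2 from -0.94 to 0.46. Cd9 ran from -1.06 to -0.14 with that offset, and from -0.30 to 0.77 without one. With no offset at all, Spp1 rose by 0.91 ± 0.276 (adjusted p = 0.0400), Fabp5 by 1.44 ± 0.297 (adjusted p = 0.0127) and Trem2 by 0.88 ± 0.204 (adjusted p = 0.0182), beside 32.7% of all expressed genes. Lgals3 then stood at 0.81 (adjusted p = 0.0696), and the signs of Apoe (0.31, adjusted p = 0.50), Cd9 (0.27, adjusted p = 0.425) and Plin2 (0.09, adjusted p = 0.852) turned, none of them past the threshold. The median of the 7 was 0.19 with the longest transcript, 0.01 with the principal isoform and 0.81 with no offset, against -0.03, -0.01 and 0.00 over all genes fitted.

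**Figure D5:**
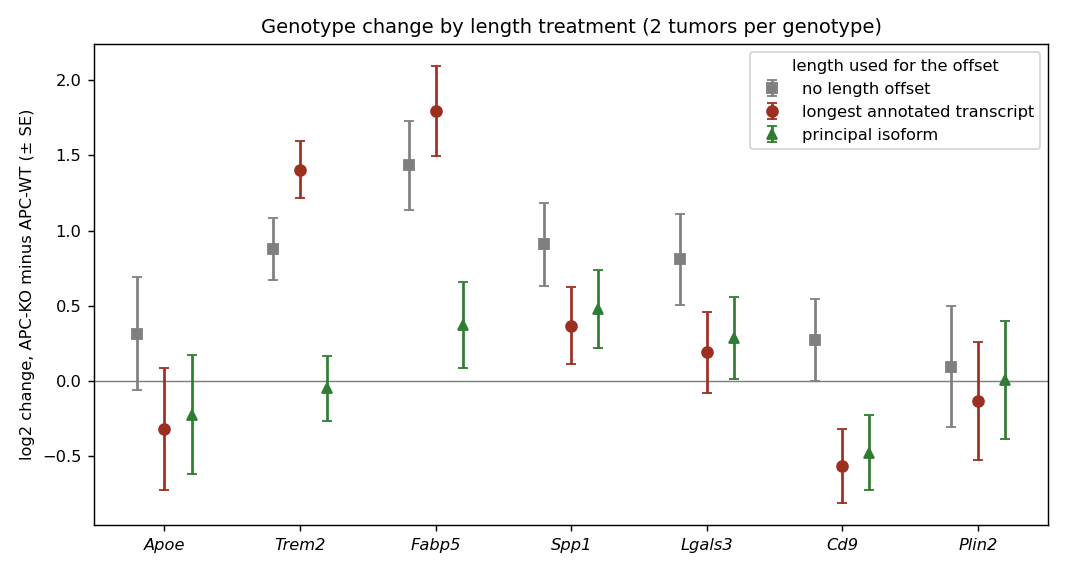
Log2 change from APC-WT to APC-KO (2 tumors each) of the 7 expressed genes, with bars of 1 SE, with no length offset, with the longest annotated transcript and with the principal isoform. Trem2 and Fabp5 move from 1.41 and 1.80 to -0.05 and 0.37 between the 2 lengths, while the other 5 shift by about 0.1.

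Of 13 genes of TREM2 signalling, from its adaptor to the kinases, phosphatase and sheddases around it, 9 were expressed. Of these, 7 fell with both lengths while none rose (median log2 -1.05 against -0.03 over all expressed genes). The kinases Syk (-0.48 ± 0.187, adjusted p = 0.0919) and Btk (-0.11 ± 0.230, adjusted p = 0.699) did not pass with either length. Without offset Syk fell by 0.99 ± 0.191 (adjusted p = 0.0102) and Btk did not pass. With the longest transcript 24.9% of all expressed genes rose and 24.4% fell, the shares to set beside the counts of this list and those that follow. Pik3ap1, the BCAP adaptor of PI3 kinase, fell by 1.61 ± 0.160 (adjusted p = 0.00367), and stood at 1583, 1318, 344 and 313 scaled CPM in the 4 tumors. Plcg2, the phospholipase that TREM2 activates, fell by 1.13 ± 0.122 (adjusted p = 0.00411), from 422 and 375 to 131 and 123. The adaptor Tyrobp, named because its direction turns, fell by 0.80 ± 0.154 with the offset (adjusted p = 0.0148) but rose by 0.81 ± 0.152 without it (adjusted p = 0.00918), at 436, 374, 700.0 and 708 scaled CPM. Inpp5d, Vav1, Adam10 and Adam17 also fell, so 6 of the 7 passed in one direction under both lengths and without offset. The principal isoforms of these 6 are long, from 2963 bases (Vav1) to 4937 (Inpp5d). Without offset the median change of all expressed genes was -0.35 at 2001 to 4000 bases and -0.60 above 4000. A fall without offset is thus in the direction of the length trend and is not independent of it. Without APC-KO tumor 1 the number that fell was 4, and without APC-KO tumor 2 it was 5.

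Among receptors for lipid uptake, 6 of 11 were expressed, 2 rose and 1 fell (median -0.01). Scarb1, the HDL receptor, rose by 0.51 ± 0.0985 (adjusted p = 0.0152) and the scavenger receptor Cd68 fell by 1.10 ± 0.133 (adjusted p = 0.00504), but without offset neither passed (0.17, adjusted p = 0.181, and -0.26, adjusted p = 0.156). Cd36, the fatty acid receptor, was below the limit at 14.9, 43.4, 46.8 and 25.1 scaled CPM over 0.277, 1.98, 14.0 and 14.2. Of 20 genes of lipid droplets and fatty acid storage 12 were expressed, 2 rose and 4 fell (median -0.36). Those that fell no longer passed on leaving out either APC-KO tumor. Plin3, a perilipin like Plin2, rose by 1.05 ± 0.116 (adjusted p = 0.00432), at 113, 122, 189 and 167 scaled CPM, and passed under both lengths and without offset. With the lower limit for expressed genes Plin3 no longer passed. Nceh1, which hydrolyses cholesterol esters, rose by 0.85 ± 0.133 (adjusted p = 0.00863) and without offset stood at 0.33 (adjusted p = 0.103).

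Of 12 genes of apolipoproteins and lipoprotein handling 4 were expressed, of which 1 rose and 2 fell (median -0.67). Both that fell load or transfer lipid: Abca1, the cholesterol exporter that lipidates apolipoprotein E, by 1.16 ± 0.216 (adjusted p = 0.0138), and Pltp, the phospholipid transfer protein, by 1.09 ± 0.236 (adjusted p = 0.0201). Abca1 stood at 854 and 515 scaled CPM in APC-WT and 282 and 240.4 in APC-KO. The gene of this list that rose was Abcg1, by 0.47 ± 0.115 (adjusted p = 0.0285), and by 0.51 with the principal isoform (adjusted p = 0.0288). Without offset Abcg1 stood at -0.03 (adjusted p = 0.809). Of 15 regulators of the lipid-associated programme 8 were expressed, 3 fell and none rose (median -0.39), and 1 of the 3 passed with the principal isoform. That one was Hif1a, the hypoxia factor, which fell by 1.91 ± 0.302 (adjusted p = 0.00891), from 786 and 1018 to 203 and 127. Nr1h2, which codes for LXR beta, fell by 0.60 ± 0.142 (adjusted p = 0.0261, and 0.0504 with the principal isoform). Pparg was below the limit, at 16.9, 27.3, 16.8 and 15.7 over 0.228, 1.63, 11.5 and 11.7.

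Of 15 receptors and partners of osteopontin, galectin-3 and CD9, 9 were expressed, 4 fell and 1 rose (median -0.33). The tetraspanin Cd81, a CD9 partner, fell by 1.34 ± 0.175 (adjusted p = 0.00582), and the integrin chain Itgb1 by 1.21 ± 0.161 (adjusted p = 0.00604). All 4 that fell passed with both lengths and without offset, but not all of them on leaving out either APC-KO tumor. For Itgb1 (3815 bases) and Lgals3bp (2330) a fall without offset is in the direction of the length trend. For Cd81 (1533) and Cd82 (1824) it is not, as the median of genes of 1501 to 2000 bases was 0.20. Of 20 other genes reported in lipid-associated macrophages 19 were expressed, 2 rose and 3 fell (median -0.12). Itgax (CD11c) fell by 1.09 ± 0.159 (adjusted p = 0.00760), and Cd63, a lysosomal tetraspanin on both of these lists, rose by 1.21 ± 0.291 (adjusted p = 0.0269). Like Trem2, Cd63 has a retained-intron form as its longest transcript (2894 against 1109 bases), and with the principal isoform it stood at 0.02 (adjusted p = 0.965). On leaving out either APC-KO tumor, Scarb1, Abca1, Pltp, Nr1h2, Itgax and Cd63 no longer passed (adjusted p = 0.0521 to 0.148), and neither did Nceh1 without APC-KO tumor 1 (adjusted p = 0.0547).

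Over the 7 lists, 105 genes were in the table, 66 were expressed and 31 were called, against 49.2% of all expressed genes. Between the tumors of a genotype, 14 of the 66 (21.2%) followed Lgals3, Plin2 and Cd9 by being higher in APC-WT tumor 2 and lower in APC-KO tumor 2, beside 9.95% of all expressed genes. They included the iron store subunits Fth1 and Ftl1, the elastase Mmp12, the annexin Anxa2, Hif1a and G0s2, an inhibitor of lipolysis on lipid droplets. Another 8 (12.1%) followed Apoe and Trem2, beside 8.99%, among them Apoc2, the lipoprotein lipase cofactor, Mertk, a receptor for apoptotic cells, and Cd63. Acsl1 was higher in tumor 2 of both genotypes, 5 were lower in both and 38 were not called in both comparisons.

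The expressed genes whose log2 scaled CPM were most like those of Trem2 over the 24 libraries were Apoc2 (Pearson r = 0.989), Ptma (0.987) and Cst3 (0.987). Those most like Spp1 were Ccl6 (0.991), AA467197 (0.990) and Saa3 (0.987), and those most like Apoe were Fcrls (0.968), Camk1 (0.965) and Dpysl2 (0.946). The 24 libraries are 4 tumors of 6, so these values describe the pattern over 4 tumors and carry no test. They were computed without the length offset, so they also carry the trend with transcript length between genotypes.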

How the data were processed

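The authors deposited whole-number read counts for 55487 Ensembl gene IDs in 24 libraries of sorted macrophages; bcl2fastq 2.20.0, HISAT2, StringTie and the build mm9 are named in the submitters' processing notes, with no settings. Per the labels' protocols, the tumors were enzymatically digested and the sorted cells' RNA went into Nextera XT libraries. Symbols (55227 IDs matched), lengths and positions came from GENCODE M21 and promoters from RefSeq, both on GRCm38, so coordinates are not those of the authors' build.

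All further values were obtained in R 4.3.3 (edgeR 4.0.16, DESeq2 1.42.0, limma 3.58.1) and Python 3.11.15 from those counts. The expected background per kb of exon came from 1974 olfactory and vomeronasal receptor genes. A set of 13 satellite-like loci, which share at least 0.1 of their 15-mers with a satellite repeat gene (a limit set after the shares were seen), was left out of the expressed genes. For the genotype, counts were summed per tumor and fitted by edgeR's quasi-likelihood test over the 3938 expressed genes, with a loess offset (span 0.5) on log2 length of the longest transcript. Tumors within a genotype were compared over all 24 libraries by the same test with TMM and no offset. Adjusted p-values are Benjamini-Hochberg over all genes fitted, with a threshold of 0.05, and SE is the log2 change divided by the square root of F. The fits were tested on simulated counts.

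The 10 genes, the 7 related lists and the 8 marker lists (macrophage, adipocyte, endothelial, tumor or colon epithelium, fibroblast, neutrophil, T and NK cell, dendritic cell) were chosen with earlier results of these data known. Named were the 10 genes, the 2 genes of each related list with the smallest genotype p, and the 3 genes most like Trem2, Spp1 and Apoe (Gpnmb was not expressed); other related genes in the text were picked with their values in view. Alternatives were other length and GC offsets, background subtraction, other scalings and limits for expressed genes, DESeq2, limma-voom, a replicate block and leaving out tumors or libraries. Subtraction of 1.5 times the background was added after the data were seen.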

Additional observations from a re-analysis of the deposited data

Results flagged for a closer look

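For the 10 genes and the named related genes, 96 groups of 6 libraries were searched for a library that stands apart from the other 5 of its tumor. Chance alone passes the limit used in about 1 in 20 groups. The 3 libraries found in 96 groups are below that rate. Gpnmb read 135 scaled CPM in replicate 3 of APC-KO tumor 1, against 90.0 to 105 in the other 5 libraries. Cd68 read 731 in replicate 1 of APC-WT tumor 1, against 763 to 779. Nr1h2 read 175 in replicate 3 of APC-KO tumor 2, against 132 to 147.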

How the results depend on the processing

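Over the alternatives, single-gene values kept direction and side of the threshold in 838 cases, 82 lost the call and 14 gained one. The sign changed in 53, of which 19 were called in at least one of the fits compared and 34 in neither, among these Spp1, Apoe, Lgals3, Plin2 and Cd9 between genotypes. Of the 7 expressed genes, 2 rose between genotypes and 0 fell, beside 24.9% and 24.4% of all expressed genes. The number that rose was 0 with the principal isoform (Trem2 -0.051), where 23.4% of all genes fitted rose. It was also 0 with TMM over all genes. With all genes scaled to the expressed genes 7 of the 10 rose, beside 59.2% of all genes fitted. With a lower limit for expressed genes 3 fell (Lgals3 at -0.99, Plin2 and Cd9), beside 34.2% of all genes fitted. The 2 that rose, beside 25.6%, were Gpnmb and Lpl, in place of Trem2 and Fabp5. Scarb1 was then at -0.56 and Nceh1 at -0.12, and Plin3 no longer passed. The 1939 expressed genes called became 33252 with all genes scaled to the expressed genes, 7320 with the lower limit, and 0 with TMM over all genes (edgeR, lowest adjusted p = 0.0917, 17844 at an unadjusted p under 0.05; DESeq2 with the length offset called 2286 of the expressed genes). The 31 related genes called, of 66 expressed, became 67, 65 and 0 under the same 3 settings. Those fits also held related genes below the limit for expressed genes, from the 105 in the 7 lists. Of all genes fitted, 59.2% rose and 2.75% fell in the first setting, and 25.6% rose and 34.2% fell in the second. TMM over all genes turned Fabp5 to -2.74, Trem2 to -3.27, Scarb1 to -3.84, Plin3 to -3.37, Nceh1 to -3.77 and Cd63 to -3.28, with the median expressed gene at -4.01. Leaving out a tumor gave 810 (without APC-KO tumor 2) to 1924 genes called, 824 without APC-KO tumor 1, 10 to 34 related genes, and again 2 of the 10 genes rising and 0 falling; the lone tumor is then assumed to vary like the others.

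Between APC-WT tumors, TMM over all genes gave Spp1 -1.23, Lgals3 -0.84, Plin2 -0.92, Cd9 -0.81, Cd68 -1.24, Plin3 -1.18, Hif1a -0.91 and Nr1h2 -1.02, and the length offset gave Spp1 -0.026; the cause was not tested. Leaving out a library left 6 or 7 of the 7 genes called in APC-WT and 7 in APC-KO. Deviations of same-numbered libraries correlated above 0.1 in 4 of 6 pairs in APC-WT (from -0.535 to 0.800) and in 1 of 6 in APC-KO (from -0.166 to 0.143), and were best with their own number in 2 and 0 of 6. Since not every pair did, and the labels tie the numbers to nothing shared, the numbers were not taken to pair the samples. A replicate block gave 1794 calls in place of 1848 in APC-WT and 1280 in place of 1313 in APC-KO, and of the 7 genes it lost Spp1 in APC-WT. The genotype fit was not blocked on tumor number, since the labels tie tumors of the same number to no shared animal or batch. The precision for Gpnmb, Lpl and Fabp4 in APC-KO is limited by their nearness to the background.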
